A study of Mus musculus with 14 samples.

Results

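Transcripts of 9 genes of the ERK pathway were examined in mammary epithelial preparations from mice that overexpress Usp22, a deubiquitinase of the SAGA coactivator complex. They comprised 3 kinases, Mapk3 (ERK1), Map2k1 (MEK1) and Map2k2 (MEK2), and 6 genes that are transcribed in response to ERK activity and feed back on it, Dusp4, Dusp6, Spry2, Spry4, Etv4 and Etv5. The genes were taken by symbol from the deposited expression table, with earlier results of these data known, and all 9 were among its 16124 genes. The question was whether these transcripts differed between Usp22 OE/OE females and their wild-type (WT) littermates. No difference was detected: 0 of the 9 passed limma's test at an unadjusted p of 0.05, against 3.81% of all genes (1.95% higher and 1.85% lower in OE/OE), and the 95% intervals of the difference included 0 for every one.

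The ERK cascade passes signals from receptor tyrosine kinases through RAS and RAF to MEK1 and MEK2, which phosphorylate and so activate the ERK kinases. Active ERK drives the transcription of its own restraints, among them dual-specificity phosphatases that dephosphorylate ERK and Sprouty proteins that dampen signalling upstream of it, and also of ETS factors of the PEA3 family. In the mammary gland the cascade acts downstream of EGF and FGF receptors in ductal growth and branching. Feedback transcripts are widely used as a readout of ERK output, whereas the amount of kinase mRNA says nothing about how much of the kinase is phosphorylated. RNA-seq measures transcripts, so phosphorylation was outside these measurements.

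The 14 libraries came from 7 littermate pairs, labelled 1 and 3 to 8, with 1 female of 3.5 months per library. The OE/OE mice were homozygous for a Usp22 cDNA with FLAG and MYC tags, knocked in at the ROSA26 locus under the ubiquitously active CAGGS promoter, after a floxed stop cassette had been deleted with Zp3-Cre, which acts in the oocyte. Overexpression was therefore not limited to the epithelium, and the controls were WT littermates. The strain was not given in the sources used here. Cells were organoids that had been separated from stroma by pulse centrifugation and dissociated, so they were mainly but not purely epithelial.

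Libraries held 20125106 to 41835978 counted fragments, and the WT mice of pairs 1 and 8 were the shallowest. The count of Usp22 itself, after normalization, was 3500 to 5380 among WT animals and 74948 to 144288 among OE/OE animals, and no label disagreed with it. The 10 pan-epithelial markers were all in the table and together reached 293000 to 498100 normalized counts in WT and 311900 to 594000 in OE/OE mice. All 10 fibroblast markers were also measured, at summed levels of 122300 to 245200 in WT and 90180 to 183000 in OE/OE mice, and the 10 adipocyte markers at 13880 to 35310 and 10210 to 31940. In such bulk samples, fewer cells of a type and less RNA per cell cannot be told apart.

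Each of the 9 genes lies on a separate stretch of the genome (GRCm38), and none shared an annotated exon base with another gene. The promoter sequences of 5 of them, Map2k1, Map2k2, Dusp6, Spry2 and Etv5, were in the RefSeq promoter table (GRCm38.p6). The letters CGGAAG, a single form of the ETS site, were searched on both strands in the 250 bases before each start site. Members of the PEA3 family bind ETS sites, and other forms of the site were not searched. Of the 5 genes, Dusp6 alone held a match to CGGAAG, starting at position -62 from the start site, and 13.6% of all 32851 promoter windows held at least 1. Map2k1 had 2 matches to the cAMP-response core TGACG, the first at position -149, against 17.8% of all windows with at least 1. A match of letters is a description of the window and does not show binding. The windows of the 2 most abundant feedback transcripts and of Map2k2, whose level stood apart in 1 OE/OE mouse, are shown 5′ to 3′ on the gene's strand. Capitals mark the CGGAAG match (as its reverse complement), and the windows of Spry2 and Map2k2 have no match to these letters. They are chr10:99262981-99263230 on the plus strand for Dusp6, chr14:105896820-105897069 on the minus strand for Spry2 and chr10:81105665-81105914 on the plus strand for Map2k2.
Dusp6: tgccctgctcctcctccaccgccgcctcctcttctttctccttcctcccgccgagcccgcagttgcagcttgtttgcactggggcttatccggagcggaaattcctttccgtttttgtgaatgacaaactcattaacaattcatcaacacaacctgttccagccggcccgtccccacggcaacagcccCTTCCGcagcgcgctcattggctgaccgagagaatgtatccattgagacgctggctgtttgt
Spry2: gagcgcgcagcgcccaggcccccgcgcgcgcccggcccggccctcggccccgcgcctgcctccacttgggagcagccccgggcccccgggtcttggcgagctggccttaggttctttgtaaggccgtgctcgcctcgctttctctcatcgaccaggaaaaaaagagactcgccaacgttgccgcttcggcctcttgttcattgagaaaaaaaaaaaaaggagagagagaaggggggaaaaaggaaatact
Map2k2: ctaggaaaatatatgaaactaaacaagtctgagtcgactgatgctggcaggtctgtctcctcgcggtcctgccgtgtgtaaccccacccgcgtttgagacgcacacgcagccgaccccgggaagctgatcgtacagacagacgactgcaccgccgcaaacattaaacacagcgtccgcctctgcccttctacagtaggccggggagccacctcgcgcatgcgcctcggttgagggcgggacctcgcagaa

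To compare genes with one another, normalized counts were divided by the length of each gene's merged exons. Dusp6, the phosphatase that acts on ERK in the cytoplasm, had the highest level per kilobase, at 4273 ± 605 in WT and 4303 ± 1139 in OE/OE mice (normalized counts per kb, SD, n = 7 each). Spry2, an inhibitor of signalling between receptors and RAF, came next with 2629 ± 443 and 2669 ± 765, and ERK1 followed with 1987 ± 336 and 1995 ± 392. The 3 highest levels thus belonged to 2 feedback inhibitors and to the kinase they restrain.

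Dusp4, a nuclear phosphatase of ERK, lay at 1306 ± 597 normalized counts per kb in WT and 1313 ± 492 in OE/OE mice, and had a wide spread in both. Map2k1 was the most even of the 9, with 738 ± 64.3 and 733 ± 69.0 normalized counts per kb, and its highest mouse was 1.31-fold above its lowest. Map2k2 reached 500.5 ± 48.9 and 535 ± 157. Below the kinases came Spry4 (236 ± 42.7 in WT and 243 ± 60.0 in OE/OE), Etv5 (182 ± 45.3 and 217 ± 43.5) and Etv4 (119 ± 14.9 and 125 ± 82.8), so the sparsest transcripts were those of the other Sprouty gene and of the ETS factors.

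Neighbours in this order were compared on the mean of the 2 littermates, by two-sided exact sign flips over the 7 litters, for which the smallest possible p is 0.0156. Of the 8 steps, 6 had an exact p under 0.05 after adjustment over the 8. The order was set from the WT means of the same mice, so these p-values describe the steps and are no independent support for the order. Mapk3 and Dusp4 were not separated beyond their spread, with a log2 difference in level of 0.69 in the direction of 5 of 7 litters (exact p = 0.0938), and neither were Spry4 and Etv5 (0.26, exact p = 0.0938). The order rests on the length used. With the longest transcript in place of merged exons, 4 of the 8 steps had an exact p under 0.05, none after adjustment (smallest 0.0625), Map2k2 stood above Map2k1 by 0.23 on the log2 scale (exact p = 0.0625), and Spry2 and Mapk3 were 0.08 apart (exact p = 0.344).

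**Figure D1:**
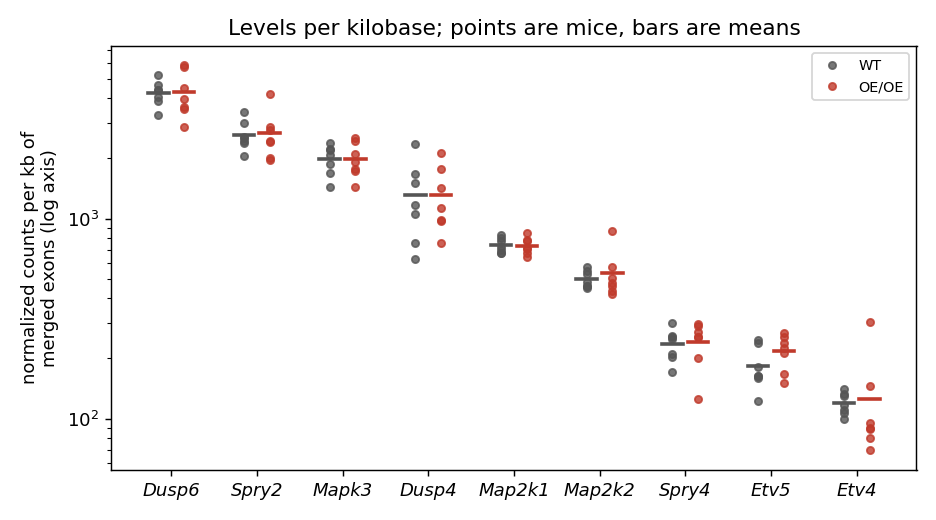
Level of each gene as normalized counts per kilobase of merged exons, on a log axis. Points are single mice (7 WT in grey, 7 OE/OE in red) and bars are group means; levels fall from Dusp6 (4273 in WT) to Etv4 (119 in WT), and the grey and red points of every gene overlap.

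The kinases had small errors, with SEs of the log2 fold change from 0.06 to 0.09. Mapk3 encodes ERK1, a kinase at the end of the cascade. Its normalized counts ran from 3245 through a median of 4719 to 5377 in WT mice and from 3251 through 4350 to 5715 in OE/OE mice. The ranges were nearly the same, and in both genotypes the lowest value was that of pair 5. The log2 fold change (OE/OE against WT within pairs, on log2 of the normalized count + 1) was 0.0006 with an SE of 0.08, limma gave p = 0.994 and an adjusted p of 1.00, and exact sign flips of the pairs gave p = 0.984. Its interval (95%) ran from -11.3% to 12.9%, and the OE/OE mouse was higher in 4 of 7 pairs.

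Map2k1 encodes MEK1, one of the kinases that activate ERK. It lay at 2271, 2450 and 2820 normalized counts in WT mice (lowest, median and highest) and at 2191, 2416 and 2861 in OE/OE mice. The groups overlapped over almost their whole range, and the within-pair differences ran from -0.10 to 0.08 on the log2 scale. Its log2 fold change was -0.01 with an SE of 0.06 (limma p = 0.858, adjusted p = 1.00, exact sign-flip p = 0.703), and the interval of -9.32% to 8.66% was the narrowest of the 9. Only 0.168% of all genes in the table had a smaller SE.

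Map2k2 encodes MEK2, which acts beside MEK1 on the same substrates. Its normalized counts were 2546, 2728 and 3262 in WT mice (lowest, median and highest) and 2387, 2700 and 4936 in OE/OE mice. A single animal, the OE/OE mouse of pair 4, made up the upper end, while its WT littermate was also the highest of its group and 5 of 7 OE/OE mice lay below their own littermates. The log2 fold change was 0.06 with an SE of 0.09 (limma p = 0.535, adjusted p = 1.00, exact sign-flip p = 0.828), with an interval of -9.75% to 20.4%. Without pair 4 it was -0.03. The per-kilobase ratio of Map2k2 to Map2k1 differed between littermates by 0.07 ± 0.27 on the log2 scale (SD, n = 7 pairs, exact sign-flip p = 0.625).

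**Figure D2:**
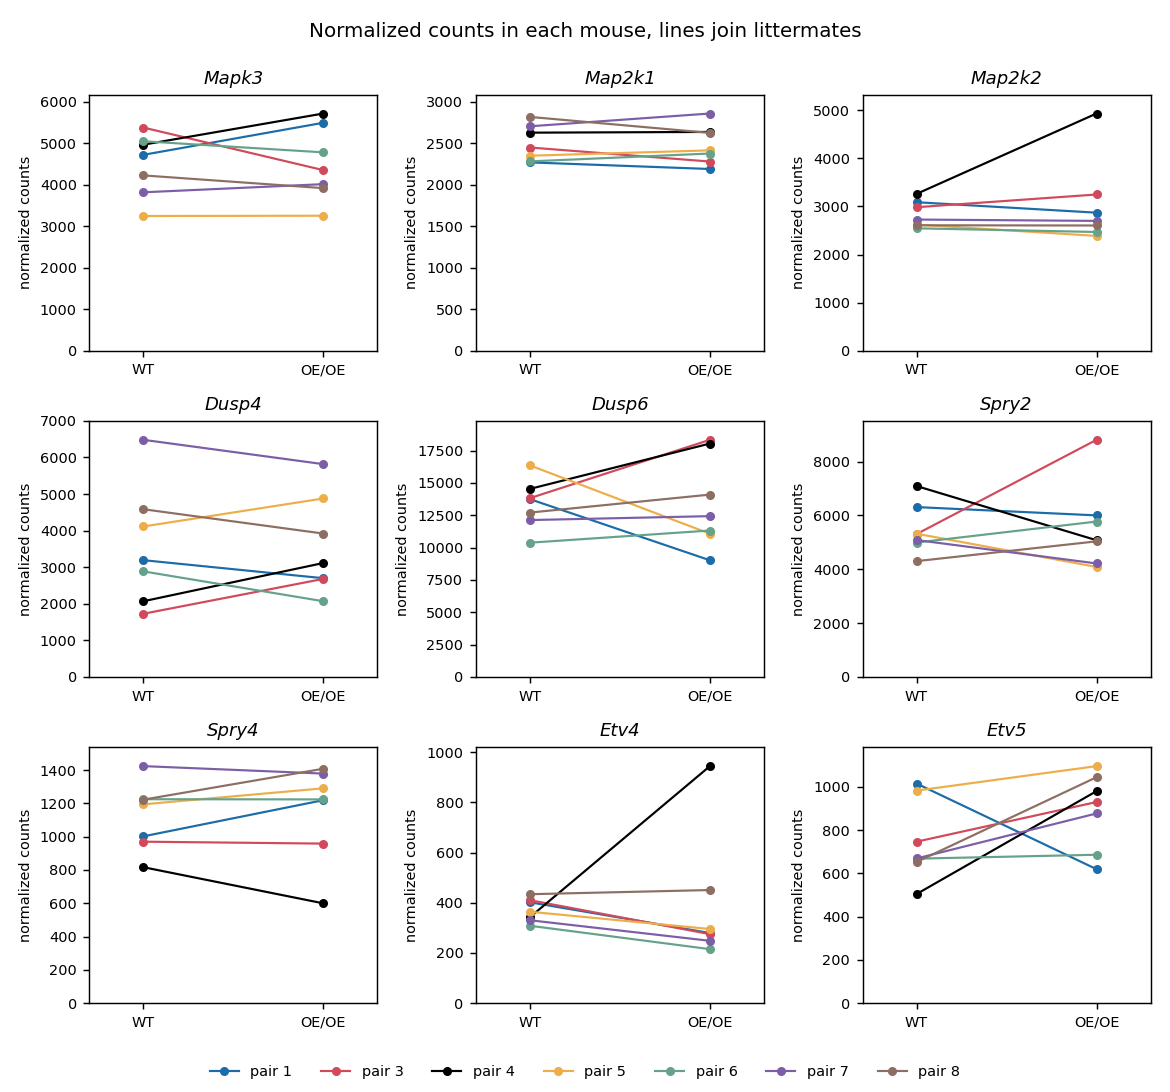
Normalized counts of the 9 genes in each mouse, with lines joining WT and OE/OE littermates of the 7 pairs; every vertical axis starts at 0. Lines run up and down in every panel, and the OE/OE mouse of pair 4 stands above all others for Map2k2 (4936) and Etv4 (945).

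The phosphatases were measured with a wider error than the kinases. Dusp4 encodes DUSP4 (MKP-2), which dephosphorylates ERK in the nucleus. Its normalized counts were 1726, 3191 and 6483 in WT mice (lowest, median and highest) and 2068, 3114 and 5818 in OE/OE mice. Both mice of pair 7 were the highest of their group, and the groups overlapped. Between littermates, the log2 fold change was 0.05 with an SE of 0.14 (limma p = 0.721, adjusted p = 1.00, exact sign-flip p = 0.766), with an interval of -16.9% to 29.4%.

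Dusp6 encodes DUSP6 (MKP-3), the ERK-selective phosphatase whose promoter is shown above. It lay at 10379, 13744 and 16354 normalized counts in WT mice and at 9019, 12432 and 18336 in OE/OE mice. The OE/OE mice both began lower and ended higher than the WT mice: pairs 1 and 5 differed by -0.61 and -0.56 on the log2 scale, and pairs 3 and 4 by 0.41 and 0.31. The OE/OE mouse was higher in 5 of 7 pairs, yet the log2 fold change was -0.02 with an SE of 0.14 (limma p = 0.886, adjusted p = 1.00, exact sign-flip p = 0.891) and an interval of -20.3% to 22.0%. The per-kilobase ratio of Dusp6 to Dusp4 differed between littermates by -0.07 ± 0.49 (exact sign-flip p = 0.688).

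The Sprouty transcripts showed no common direction. Spry2 encodes a membrane-associated inhibitor that is itself phosphorylated on growth factor stimulation. Its normalized counts were 4301, 5306 and 7091 in WT mice (lowest, median and highest) and 4085, 5078 and 8808 in OE/OE mice. The highest value came from the OE/OE mouse of pair 3, whose littermate lay at the WT median. For Spry2 the log2 fold change was -0.01 with an SE of 0.14 (limma p = 0.970, adjusted p = 1.00, exact sign-flip p = 0.984), with an interval of -19.8% to 23.7%, and 3 of 7 pairs were higher.

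Spry4, another Sprouty inhibitor, lay at 816, 1194 and 1423 normalized counts in WT mice and at 599, 1224 and 1408 in OE/OE mice. Both mice of pair 4 were the lowest of their group. The log2 fold change was 0.01 with an SE of 0.09 (limma p = 0.893, adjusted p = 1.00, exact sign-flip p = 0.938), and the interval was -12.5% to 16.3%. The ratio of Spry2 to Spry4 differed between littermates by -0.02 ± 0.41 (exact sign-flip p = 0.906).

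The ETS factors Etv4 (PEA3) and Etv5 (ERM), transcription factors induced downstream of FGF and ERK signalling, had the largest estimates of the 9, in opposite directions, and neither passed the test. Etv4 lay at 308.5, 364 and 434 normalized counts in WT mice and at 215, 279.6 and 945 in OE/OE mice. Only 2 OE/OE mice, those of pairs 4 and 8, were above their littermates, and the mouse of pair 4 lay above every other mouse of either genotype. For Etv4 the log2 fold change was -0.12 with an SE of 0.23 (limma p = 0.628, adjusted p = 1.00, exact sign-flip p = 0.781), with an interval of -35.7% to 32.4%.

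Pair 4 decided the value of Etv4. With that pair left out, the log2 fold change was -0.38 with an SE of 0.10, limma gave p = 0.00528 and an adjusted p of 0.523, and 5 of the 6 remaining pairs had less in the OE/OE mouse (p = 0.0625 by exact sign flips). Leaving out any other pair gave -0.14 to -0.04. In the table as a whole, 3.81% of genes passed at an unadjusted p of 0.05 with all pairs and 8.47% without pair 4, of which those lower in OE/OE were 3.98% of all genes.

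Etv5 lay at 504.5, 669 and 1015 normalized counts in WT mice and at 619.6, 930 and 1096 in OE/OE mice. It was higher in the OE/OE mouse in 6 of 7 pairs, a share of 6 or more in 1 direction that 14.1% of all genes reached, and the ranges overlapped. The exception was pair 1, with a log2 difference of -0.71, while pairs 4 and 8 differed by 0.96 and 0.68. For Etv5 the log2 fold change was 0.26 with an SE of 0.17 (limma p = 0.160, adjusted p = 1.00, exact sign-flip p = 0.234), and the interval of -8.20% to 56.3% was the widest on its upper side.

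Of the 7 pairs, only pair 1 changed the call of Etv5 when left out. Without it, the log2 fold change was 0.42 with an SE of 0.13, limma gave p = 0.00948 and an adjusted p of 0.651, and 6 of 6 pairs were higher (exact sign-flip p = 0.0312). The fit without pair 1 called 7.42% of all genes. Leaving out any other pair gave 0.14 to 0.30. The per-kilobase ratio of Etv5 to Etv4 had a mean log2 of 0.58 in WT and 0.96 in OE/OE mice. The difference between littermates was 0.38 ± 0.52 (SD, n = 7 pairs), higher in 5 of 7, with an exact sign-flip p of 0.125 and an adjusted p of 0.500 over the 4 ratios compared.

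**Figure D3:**
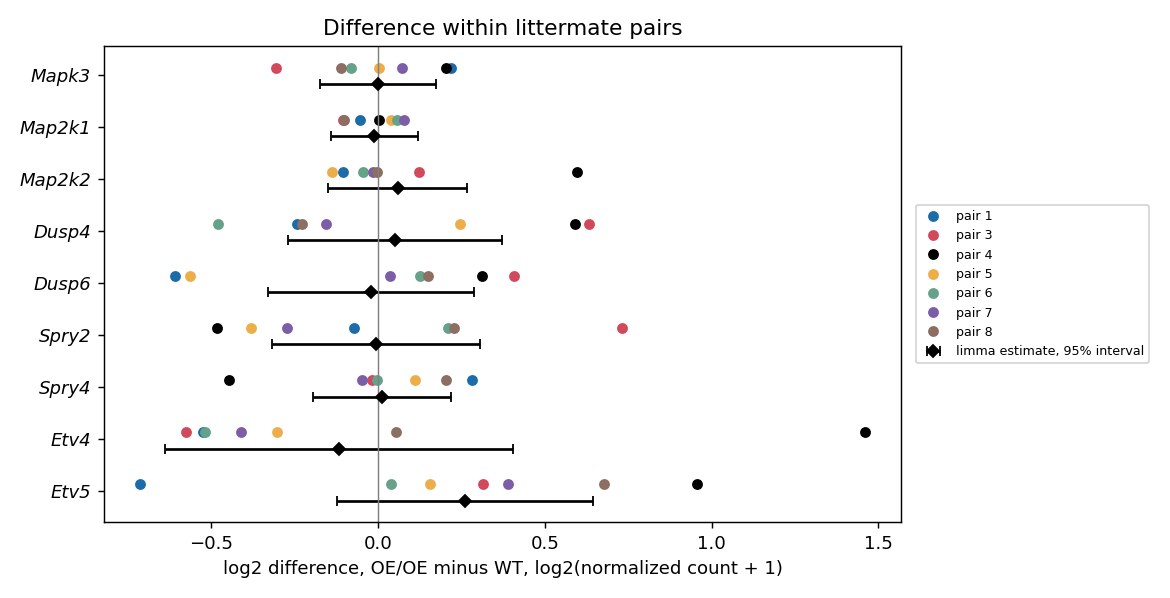
Log2 difference between OE/OE and WT littermates in each of the 7 pairs (coloured points) with the limma estimate and its 95% interval (black diamond and bar). All 9 intervals include 0, from the narrow one of Map2k1 to the wide one of Etv4, whose pair 4 lies at 1.46.

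Over the 9 genes, the median log2 fold change was 0.0006, and the median of its size was 0.02. Over all 16124 genes these were -0.0015 and 0.09. Over the 9220 genes with a mean count at or above that of Etv4, the lowest of the 9, they were 0.0145 and 0.07. None of the 9 had the same direction in all 7 pairs, which 1.51% of all genes had, and none had separate ranges in the 2 genotypes, which 0.0434% had. Two-sided exact sign flips of the 7 within-pair differences gave p from 0.234 for Etv5 to 0.984 for Mapk3 and Spry2. edgeR and DESeq2 on the recovered fragments also called 0 of the 9, as did limma without the pair block, in which 1.13% of all genes passed. At an adjusted p under 0.05, limma called 0.0124% of all genes and 0 of the 9. The intervals differ in what they leave room for: those of Mapk3 and Map2k1 stayed within 12.9% in either direction, whereas that of Etv5 reached up to 56.3% and that of Etv4 down to -35.7%.

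Most of the variation in these transcripts lay between litters. Litter took 77.8% to 91.3% of the sum of squares of the 3 kinases, 89.3% of that of Spry4 and 86.4% of that of Dusp4. It took less of Dusp6 (55.9%), Spry2 (53.7%), Etv4 (52.3%) and Etv5 (31.0%). The median over all genes was 73.9%, and litter holds 46.2% of the degrees of freedom, so for Dusp6, Spry2 and Etv4 its share was little above that and for Etv5 it was below. Genotype took 15.2% for Etv5 and at most 1.37% for each of the others, beside a median of 1.43% over all genes.

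Pair 4 held the largest within-pair difference of Map2k2, Spry4, Etv4 and Etv5, 4 of the 9 genes, and it held that of 41.8% of all genes. Its median difference in size was 0.48 for the 9 genes and 0.43 for all genes. Pair 3 held the largest difference of Mapk3, Map2k1, Dusp4 and Spry2, again 4 of 9, against 9.09% of all genes. Some of these were near ties: Map2k1 was at -0.1033 in pair 3 and -0.1022 in pair 8, and Dusp4 at 0.634 in pair 3 and 0.59 in pair 4. In pair 4 the markers of other cells also differed: the mean log2 difference was -2.21 for the adipocyte list, -1.74 for the endothelial list, -0.67 for the fibroblast list and -1.18 for genes that respond to tissue dissociation. In pair 1, the only pair with lower Etv5, these were 0.63, 0.93, 0.42 and 0.83, and the lymphocyte list differed by -2.10. The part of these cells and genes in the values of pairs 1 and 4 was not tested pair by pair.

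Over all 7 pairs the adipocyte list differed by -0.82 ± 0.80 on the log2 scale, with less in the OE/OE mouse of 6 of 7 pairs (p = 0.0625 by exact sign flips, 0.234 after adjustment over 9 lists), and 6 of its 10 genes passed limma's unadjusted test, beside 3.81% of all genes. Summed over the list, where the most abundant markers weigh most, the difference was -0.20 (exact p = 0.5625). The fibroblast list differed by -0.42 ± 0.46 (5 of 7 pairs lower, exact p = 0.0781), and the pan-epithelial list by 0.17 ± 0.14 (6 of 7 higher, exact p = 0.0469, adjusted 0.234). Luminal (-0.01 ± 0.14) and basal (-0.07 ± 0.23) markers lay close to 0. With the adipocyte score as a covariate in the fit, the estimate of Etv5 was -0.19 in place of 0.26 and that of Etv4 was -0.65, past the unadjusted threshold (limma, adjusted p = 0.223), in a fit that called 16.1% of all genes. With the dissociation score as a covariate, Etv5 was at 0.37, also past it (limma, adjusted p = 0.251), in a fit that called 12.2% of all genes. That score includes Fos and Egr1, which also respond to ERK, so this fit cannot tell dissociation and ERK output apart. The direction and the call of the ETS factors thus moved with the covariate, while the kinases were not called under any covariate.

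**Figure D4:**
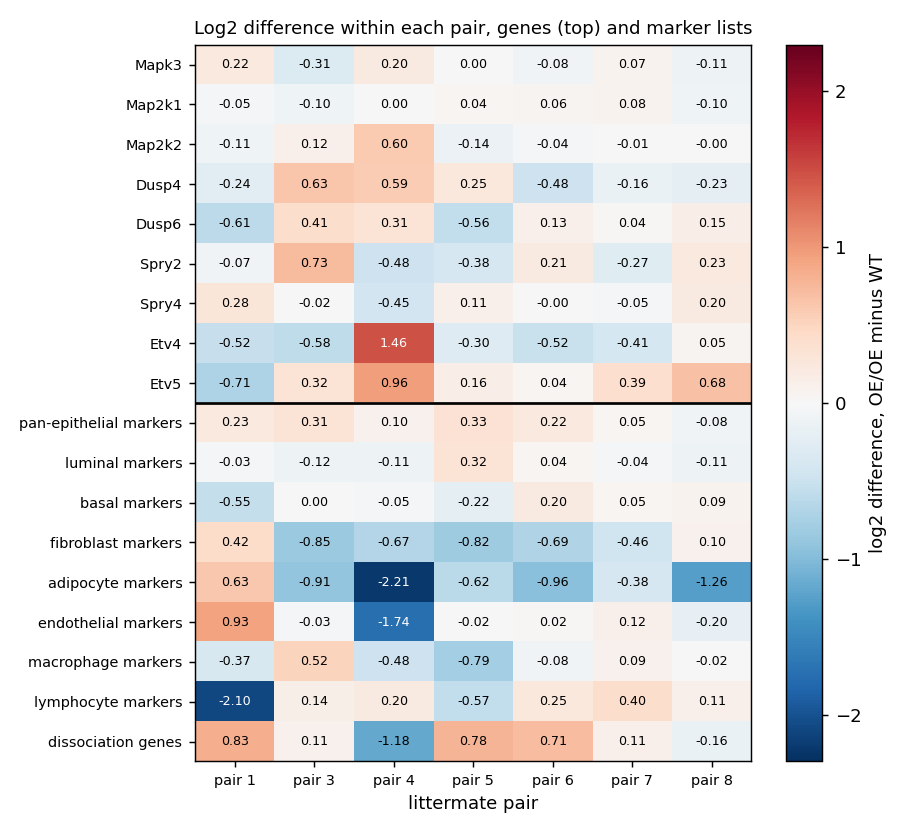
Log2 difference (OE/OE minus WT) in each littermate pair for the 9 genes (top) and for the mean of each marker list (below the line); red is higher in OE/OE and blue lower, and each cell prints its value. Pair 4 joins the largest values of Etv4 (1.46) and Etv5 (0.96) with the lowest adipocyte (-2.21) and endothelial (-1.74) values.

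The 36 correlations between the pair differences of 2 members had no common direction: 16 were positive and 20 negative. None passed after adjustment over the 36, by Pearson or by Spearman. Mapk3 and Spry2 differed in opposite ways (r = -0.84, exact permutation p = 0.0190, rho = -0.75, exact p = 0.0663, adjusted 0.343 and 0.554, n = 7 pairs), and r was -0.88 without the 2 pairs farthest from the median of Mapk3. Map2k2 and Spry4 gave r = -0.90 (exact permutation p = 0.0188, rho = -0.64, exact p = 0.139, adjusted 0.343 and 0.554), but -0.36 without pairs 3 and 4, so that relation rests on those pairs. Map2k2 and Dusp6 gave r = 0.62 (exact permutation p = 0.110) and rho = 0.89 (exact p = 0.0123, adjusted 0.427 and 0.443), with r = 0.93 without pairs 3 and 4. Map2k2 and Etv5 gave r = 0.68 (exact permutation p = 0.131) and rho = 0.79 (exact p = 0.0480, adjusted 0.427 and 0.554). Without pairs 3 and 4 their r was 0.65. For the 2 ETS factors r was 0.70 (exact permutation p = 0.122, rho = 0.71, exact p = 0.0881), and 0.27 without the 2 farthest pairs.

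The rest of the pathway was read from a pair of gene lists. Of 35 other genes of the cascade (adapters, RAS, RAF, scaffolds, RSK and MNK kinases and ETS substrates), all in the table, 1 rose and 0 fell at an unadjusted p of 0.05, or 2.86%, beside 3.81% of all genes. The median log2 fold change of the list was 0.04, with 23 genes above 0 and 12 below. Over all 16124 genes 7996 were above 0 and 8128 below. Among the 9220 genes with a mean count at or above that of Etv4, the lowest member, 5164 were above 0 and 4056 below. A paired test per gene on untransformed counts called 5 of the 35, beside 3.99% of all genes. The authors also used a paired test on normalized counts. Limma without pair 4 called 5, in a fit that called 8.47% of all genes, and limma with the fibroblast score called 0 (1.91%). The gene that rose in the main fit was Mknk2, which encodes MNK2, a kinase activated by ERK and p38 that phosphorylates the translation factor eIF4E. It lay at 6961, 8574 and 10072 normalized counts in WT mice and at 9105, 9852 and 11626 in OE/OE mice.

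Mknk2 was higher in OE/OE mice in 7 of 7 pairs, by 0.01 to 0.54 on the log2 scale, though the ranges overlapped. Its log2 fold change was 0.22 with an SE of 0.08 (limma, p = 0.0151, adjusted p = 1.00, exact sign-flip p = 0.0156). Mknk2 kept its unadjusted call under 18 of 21 alternatives and lost it under 3. Those were the adipocyte score as a covariate (0.19), the fibroblast score (0.17, in a fit that called 1.91% of all genes) and the fit without the pair block (0.22). Iqgap1, a scaffold that binds MEK and ERK, was also higher in 7 of 7 pairs, with a log2 fold change of 0.12 and an SE of 0.07 that did not pass (limma p = 0.110, adjusted p = 1.00, exact sign-flip p = 0.0156). Shc1, an adapter between receptors and GRB2, was lower in 7 of 7 pairs, at -0.10 with an SE of 0.06 (limma p = 0.135, adjusted p = 1.00, exact sign-flip p = 0.0156), and is named after its values were seen. These 3 of the 35 genes had the same direction in all 7 pairs, beside 1.51% of all genes. Any gene with 1 direction in all 7 pairs has an exact sign-flip p of 0.0156. That p therefore only restates the direction of the pairs, and it was not adjusted over the 35 genes. Of the other abundant cascade genes, Pebp1, which binds and inhibits RAF, was at 0.04 with an SE of 0.10 and Ptpn11, the phosphatase SHP2 that relays receptor signals to RAS, at 0.06 with an SE of 0.07. Grb2, the adapter that links receptors to SOS, was named after its values were seen and lay at 0.02 with an SE of 0.06 (adjusted p = 1.00 by limma).

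Of 30 other transcripts that respond to ERK, 29 were in the table (Spry3 was not among its genes) and 0 passed, by limma, edgeR or DESeq2. Their median log2 fold change was 0.08, with 20 above 0 and 9 below. Over all genes 7996 were above 0 and 8128 below, and among those at least as abundant as Etv4 5164 and 4056. With the adipocyte score as a covariate, 12 of the 29 passed unadjusted, in a fit that called 16.1% of all genes. Without pair 4, 5 of the 29 passed, in a fit that called 8.47%. The cause of these moves was not tested. The 4 most abundant of the 29 were immediate-early and feedback genes. Fos, a subunit of AP-1, ran from 28039 to 64967 normalized counts in WT mice and from 20316 to 83207 in OE/OE mice, with a log2 fold change of 0.18 and an SE of 0.25. Egr1, an immediate-early zinc finger factor, was at 0.14 with an SE of 0.21, Klf6 at 0.07 with an SE of 0.18 and Errfi1, the EGF receptor inhibitor MIG6, at -0.08 with an SE of 0.15. With the adipocyte score as a covariate, Fos was at 0.79, Egr1 at 0.58 and Klf6 at 0.50. Each passed unadjusted (limma, adjusted p = 0.184, 0.268 and 0.211), while Errfi1, at 0.13, did not. Without pair 4, Fos was at 0.43 and passed (limma, adjusted p = 0.551), but Egr1, Klf6 and Errfi1 did not. Fos and Egr1 are also in the list of dissociation genes, whose mean differed between littermates by 0.17 ± 0.66 (exact sign-flip p = 0.5625). Being part of that score, they cannot be adjusted for it.

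**Figure D5:**
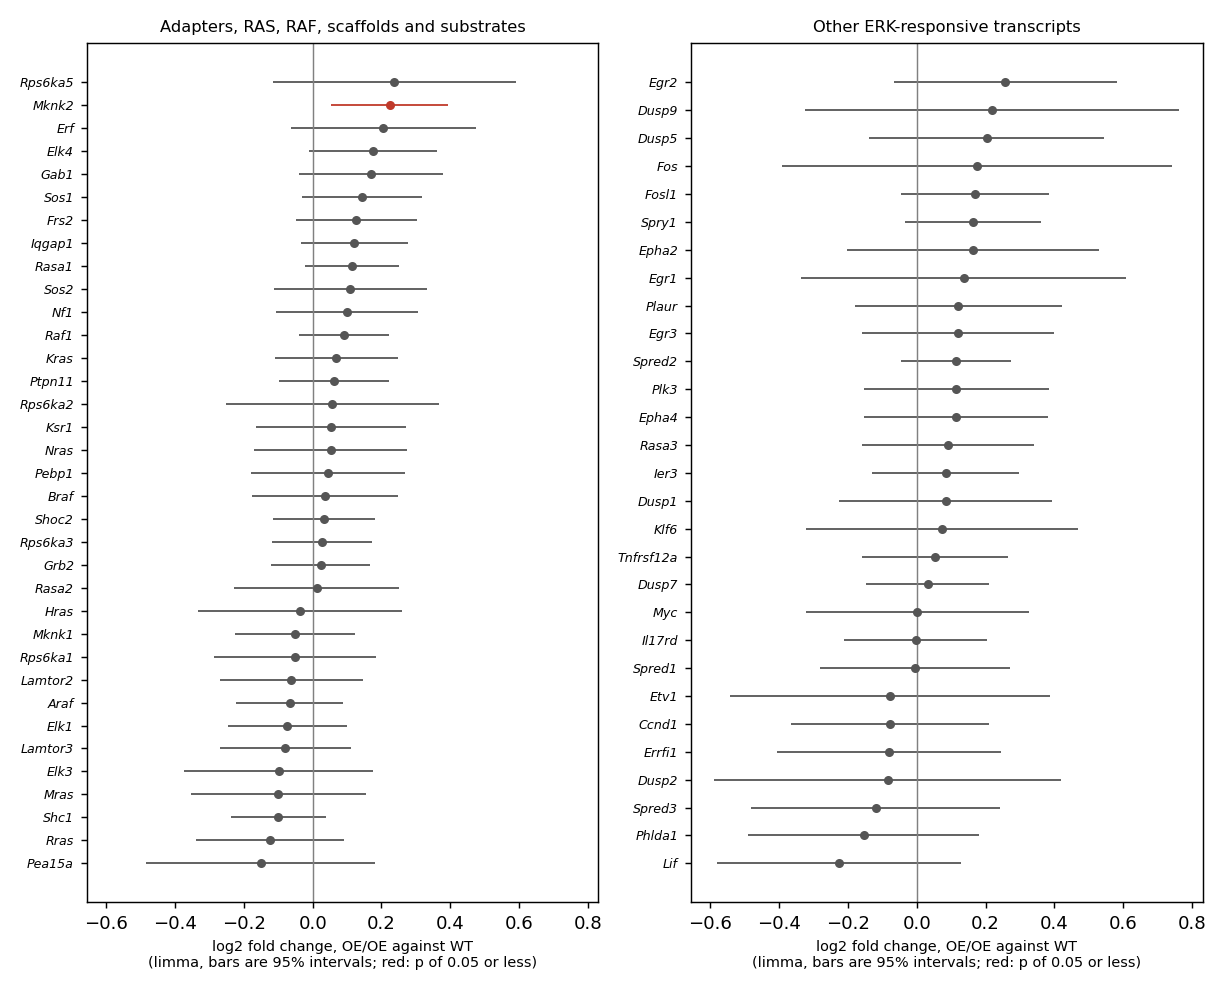
Log2 fold change (OE/OE against WT) with 95% interval from limma for 35 other genes of the ERK cascade (left) and 29 other ERK-responsive transcripts (right). Only Mknk2 (0.22, red) had an unadjusted p of 0.05 or less; the other intervals include 0.

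As a description of how the members varied over the 14 mice, the genes with the most similar profile were found by Pearson's r of log2 values among the 12074 genes with a mean of at least 100 normalized counts. The mice share litters and preparations, so these values carry no test. Mapk3 was closest to 2210016L21Rik (0.97), Nosip (0.97) and Ndufv3 (0.96), and Map2k2 to Adrm1 (0.98), Mfsd5 (0.98) and Ptov1 (0.97). Spry4 was closest to Lifr, Dnajc6 and Dock4 (0.98 each). Dusp4 had Rundc1 (0.94), Cblb (0.93) and Osbp (0.90) nearest to it, and Dusp6 had Rab39b (0.94), Mzt1 (0.94) and Ccdc137 (0.92). For Map2k1 these were Mars (0.92), Clpb and Rab3ip (0.91), for Spry2 Tubb2a (0.90), Ints13 (0.90) and H2-Aa (0.87), for Etv4 Tmem167 (0.93), Ash2l (0.91) and Cstf1 (0.91), and for Etv5 Kdm2b (0.93), Nebl (0.92) and Tlk1 (0.91). No member was among the 3 nearest genes of another.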

How the data were processed

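RNA was measured in 14 mammary epithelial libraries, 7 WT and 7 OE/OE, with pairs taken from the labels. The authors mapped 75-base paired reads to mm10 with TopHat2 2.0.10, counted fragments per GENCODE M21 gene with HTSeq 0.6.0, dropped genes that did not reach 10 fragments in 7 libraries or more and divided the counts by DESeq 1.18.0 size factors. The deposited signal values are these normalized counts, on a linear scale; 100.0% of them came out as whole numbers (within 0.01) once divided by what 1 fragment is worth in that library, which gave back the fragment counts. No column was left without a sample.

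All 16124 genes were fitted with limma 3.58.1 in R 4.3.3 on log2(normalized count + 1), with trend and littermate pair as a block, and p-values were adjusted by Benjamini-Hochberg. The threshold was an unadjusted p of 0.05. On recovered fragments, edgeR 4.0.16 and DESeq2 1.42.0 were run as alternatives. Single values were tested by exact sign flips over pairs (128 patterns). Littermates deviated together from their group means (correlation 0.17 to 0.75 in the 7 pairs, median 0.52; median -0.15 for the 42 other combinations). The script was tested on simulated data.

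The members and gene lists were chosen with earlier results of these data known. Named were all members, list genes past that threshold, the 4 most abundant genes of each list and the 3 genes most like each member; Grb2 and Shc1 were added after their values were seen. A gene of the cascade list is not reported here. Depth of 20125106 to 41835978 fragments put 236 to 21051 fragments behind each member's value. Counting error and the spread between mice were not separated.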

Additional observations from a re-analysis of the deposited data

Results flagged for a closer look

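Within a genotype, the highest and the lowest of the 7 mice were compared with the nearest other mouse, as a share of the whole range, on the log2 scale for the 9 genes and for the mean of the 9 marker lists. Of 36 such groups 2 stood out at the 95% level, where chance gives about 1.8. Map2k2 was highest in the OE/OE mouse of pair 4, at 12.27 on the log2 scale with the nearest mouse at 11.67, a gap of 0.575 of the range. The lymphocyte markers were highest in the WT mouse of pair 1, at 7.44 with the nearest at 5.21, a gap of 0.643 of the range. That mouse belongs to the pair in which Etv5 was lower in OE/OE, and the part of these cells in that value was not tested.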

How the results depend on the processing

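Of 189 values of the 9 members under 21 alternatives each, 147 kept direction and side of the threshold, 37 turned sign without passing in either setting and 5 passed newly, with a smallest adjusted p of 0.223. Shares in parentheses are of all genes called in the same fit. The number of members called, 0, was 0 without the pair block (1.13%), 1 with the adipocyte score (16.1%), 1 with the dissociation score (12.2%), 1 with the basal score (5.09%) and 0 to 1 when 1 pair was left out (Etv5 without pair 1, 7.42%, and Etv4 without pair 4, 8.47%), and sign flips likewise gave 0 to 1 (Etv5 without pair 1). The sign-flip call of Etv5 without pair 1 followed from leaving out its only lower pair. With the basal score the call was Etv5, at 0.36. The cause of these moves was not tested.

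The cascade list, with 1 call of 35 genes, had 0 without the pair block, 2 with DESeq2 (3.88%), 5 with a paired test per gene on untransformed counts (3.99%), 2 with median centring (3.91%), 2 with quantile normalization (3.86%), 3 with the adipocyte score, 0 with the fibroblast score (1.91%), 3 with the dissociation score and 1 to 5 when a pair was left out (4 without pair 1, 5 without pair 4). The other ERK output list, with 0 calls of 29 genes, had 12 with the adipocyte score (16.1%) and 1 with the dissociation score (12.2%). It had 0 to 5 when a pair was left out (5 without pair 4, 8.47%, and 1 without pair 1, 7.42%, or pair 8, 2.99%). Among the named genes, leaving out the pair block ended the call of Mknk2 and changed no other. The 1 marker list at an exact p under 0.05 became 0 with summed counts.

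Some log2 fold changes turned sign, those of Etv4, Etv5, Fos and Egr1 among them; the last pair belong to the dissociation score that turned them. The adipocyte score put Map2k2 at -0.13, Dusp4 at -0.14, Spry2 at 0.027, Etv5 at -0.19, Errfi1 at 0.13 and Pebp1 at -0.092. The fibroblast score put Map2k2 at -0.0055, Dusp4 at -0.15, Pebp1 at -0.021 and Ptpn11 at -0.012. The dissociation score put Dusp6 at 0.046, Spry4 at -0.032, Etv4 at 0.038, Egr1 at -0.013, Fos at -0.014 and Klf6 at -0.043, and the basal score Mapk3 at -0.028, Dusp6 at 0.068, Spry2 at 0.031 and Spry4 at -0.013. Quantile normalization put Mapk3 at -0.037 and Spry4 at -0.0084, median centring Map2k1 at 0.0084 and Spry2 at 0.014, and the paired test Dusp6 at 0.0099, Spry2 at 0.022 and Etv4 at 0.064. Leaving out 1 pair gave ranges of -0.036 to 0.052 for Mapk3, -0.026 to 0.0048 for Map2k1, -0.030 to 0.092 for Map2k2, -0.045 to 0.14 for Dusp4, -0.091 to 0.078 for Dusp6, -0.13 to 0.074 for Spry2, -0.032 to 0.089 for Spry4, -0.15 to 0.043 for Errfi1, -0.0073 to 0.23 for Klf6 and -0.053 to 0.089 for Pebp1.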
